A study of Mus musculus with 8 samples.

Results

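The glycolysis enzymes considered here were Hk1, Gpi1, Aldoa, Tpi1, Gapdh, Pgk1, Pgam1, Eno1, Pkm and Ldha, chosen by name as 10 genes of the pathway from glucose to lactate. All probe sets (groups of probes against 1 transcript) that carried such a symbol or an older alias were taken, together with the array maker's Gapdh control probe sets. This gave 17 of the 12488 probe sets. Of these, 12 named a single gene and read the transcribed strand, and they covered 8 of the 10 genes, among 8252 genes that the array names singly. Another 3 were Gapdh controls for the opposite strand, and 2 named Gapdh together with Gapdh pseudogenes. No probe set carried the symbol Gpi1 (glucose-6-phosphate isomerase) or Eno1 (enolase), so these enzymes were not analysed here. All 17 passed the filter on dim signals.

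RNA came from the olfactory mucosa, the nasal tissue that houses the olfactory neurons, of mice that had all undergone bilateral removal of the olfactory bulbs, the target of those neurons. The 8 arrays formed 4 groups of 2: C57BL/6 mice injected with carrier, C57BL/6 mice injected with CCL3 (also called MIP-1a, a chemokine that attracts macrophages), and mice lacking Ccl3 (labelled Mip-1a-KO, here Ccl3-/-) given either injection. The series title asks how CCL3 affects macrophage recruitment after target ablation, and the comparisons of genotype and of injection address it. Labels give no age, no time after the operation and no dose. They also do not say whether replicates came from separate animals, and where they did not, the spread behind each p-value is technical.

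All arrays had nearly the same overall brightness, with median intensities of 581.4 to 660.3. The Ccl3 probe set itself went against the labels: it read 332, 159, 223 and 386.5 on the wild-type arrays and 812, 804, 727 and 729.5 on the arrays labelled Ccl3-/-. The deleted part of the gene is not stated, and a probe set outside it checks nothing. Every genotype direction below therefore rests on the labels alone. As a check of the tissue label, Omp, which encodes the olfactory marker protein of mature olfactory neurons, read 4251 to 21779 with a median of 13860.25, and its lowest value was on wild-type carrier replicate 1.

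Glycolysis splits glucose into pyruvate in the cytosol, yielding ATP and NADH without oxygen, and lactate dehydrogenase then recycles the NADH. Every cell type uses the pathway, and its transcripts are abundant enough that Gapdh serves widely as a loading control. Several of its genes are known targets of the hypoxia-inducible factor HIF-1, and ACGTG is a common form of its core binding motif. In bulk tissue, fewer cells of a type and less RNA per cell cannot be told apart.

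Promoter sequence was examined because several of the enzymes shared a pattern over the arrays (below). Promoter windows of 300 bases, from 250 before to 50 after each transcription start, were taken from RefSeq (GRCm38.p6), and all 10 enzymes matched. The letters ACGTG were searched on both strands (CACGT on the strand shown), so that a CACGTG counts on each strand. Other forms of the motif were not searched. They were found in 8 of 17 windows of these enzymes (47.1%), against 19.6% of 32851 windows in the table, and in at least 1 window of 7 of the 10 enzymes. Over all 27025 genes of the table that share was 21.8%. The enzymes were chosen by name from a pathway with known HIF-1 targets, and a link of these matches to the pattern over the arrays was not tested. Windows of a gene can overlap, so the count of windows is not a count of separate sites. The Aldoa matches at 202 and 126 bases before their respective starts are the same site, counted in both windows. The windows of Gapdh and Ldha, which were both low on the same array, and of Pgam1, which was highest there, are shown 5′ to 3′ with each match in capitals; for Ldha the upstream of its 2 windows is given. They are Gapdh at chr6:125165724-125166023 on the minus strand, Ldha at chr7:46845554-46845853 and Pgam1 at chr19:41911621-41911920, both on the plus strand.
Gapdh: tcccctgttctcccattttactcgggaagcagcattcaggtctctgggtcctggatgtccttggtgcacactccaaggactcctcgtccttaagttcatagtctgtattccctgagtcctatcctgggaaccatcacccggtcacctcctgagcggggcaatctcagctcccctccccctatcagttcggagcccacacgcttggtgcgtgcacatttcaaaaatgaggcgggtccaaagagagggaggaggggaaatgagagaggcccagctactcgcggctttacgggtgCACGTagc
Ldha: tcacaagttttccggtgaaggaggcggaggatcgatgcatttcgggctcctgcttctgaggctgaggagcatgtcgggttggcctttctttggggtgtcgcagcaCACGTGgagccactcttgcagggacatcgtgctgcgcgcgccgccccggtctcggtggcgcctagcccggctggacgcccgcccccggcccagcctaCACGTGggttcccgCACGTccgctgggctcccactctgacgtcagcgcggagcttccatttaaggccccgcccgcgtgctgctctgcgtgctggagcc
Pgam1: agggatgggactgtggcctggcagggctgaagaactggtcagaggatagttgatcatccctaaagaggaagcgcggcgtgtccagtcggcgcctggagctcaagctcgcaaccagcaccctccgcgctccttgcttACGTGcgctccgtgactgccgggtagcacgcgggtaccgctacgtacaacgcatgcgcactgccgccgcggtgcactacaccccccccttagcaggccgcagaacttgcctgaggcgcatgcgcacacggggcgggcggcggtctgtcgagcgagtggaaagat
The Gapdh window held 1 match, 42 bases after the start. The Ldha window held 5, at 145, 144, 48, 47 and 34 bases before the start, because 2 of the sites read CACGTG. Pgam1, with the opposite pattern on the arrays, also held 1 match, 114 bases before its start. The window of Tpi1, which was low together with Gapdh and Ldha, held none.

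Gapdh, the dehydrogenase that makes the NADH of the pathway, was far lower on replicate 1 of the wild-type carrier group than on any other array. The middle control probe set, the brightest of the 3 on the transcribed strand, read 12109 and 40484.5 in wild-type carrier, 40422 and 59782 in Ccl3-/- carrier, 34446 and 42928 in wild-type CCL3, and 39087 and 43922 in Ccl3-/- CCL3 (replicates 1 and 2). Its value on wild-type carrier replicate 1 was 29.9% of the median of the other 7 arrays, none of which came near it. The pair of wild-type carrier arrays differed by 1.73 on the log2 scale, whereas the pooled SD within the other 3 groups was 0.27.

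Hk1 encodes hexokinase 1, which phosphorylates glucose and so commits it to the cell. It read 5525.5 and 12819.5 in wild-type carrier, 16394 and 35742 in Ccl3-/- carrier, 16916 and 10862 in wild-type CCL3, and 26124.5 and 23813 in Ccl3-/- CCL3. Its lowest value was again wild-type carrier replicate 1, at 32.7% of the median of the others, and its highest was Ccl3-/- carrier replicate 2. Unlike Gapdh, Hk1 also spread widely elsewhere, with a pooled SD of 0.53 within the other 3 groups. The 4 arrays labelled Ccl3-/- and the 4 wild-type arrays overlapped only at 16394 against 16916.

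Tpi1 encodes triosephosphate isomerase, which interconverts the 3-carbon products of aldolase. Its intensities were 5877 and 12622 in wild-type carrier, 10972 and 14571 in Ccl3-/- carrier, 12943 and 14223 in wild-type CCL3, and 13889.8 and 11720.0 in Ccl3-/- CCL3. The other 7 arrays lay close together, and wild-type carrier replicate 1 stood at 53.6% of the lowest of them.

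Ldha, the lactate dehydrogenase subunit that favours reduction of pyruvate, read 8667 and 17800.2 in wild-type carrier, 13991 and 25450.1 in Ccl3-/- carrier, 15201 and 20873 in wild-type CCL3, and 17042 and 13597 in Ccl3-/- CCL3. Wild-type carrier replicate 1 was lowest, at 63.7% of the next array, and Ccl3-/- carrier replicate 2 was highest.

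Aldoa, the aldolase that cleaves fructose 1,6-bisphosphate, gave a pattern that depended on the probe set. The brighter probe set read 13290.1 and 23763 in wild-type carrier, 21664 and 23371 in Ccl3-/- carrier, 24266 and 27887 in wild-type CCL3, and 27087 and 25722 in Ccl3-/- CCL3, with wild-type carrier replicate 1 at 61.3% of the lowest of the others. The second probe set read 9413 on that array and between 7076 and 10968 on the rest, so it did not share the low value.

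Pgk1, Pkm and Pgam1 did not share the low value either. Pgk1 encodes phosphoglycerate kinase, the first ATP-forming step. It read 4527 and 4110.5 in wild-type carrier, 6994 and 10589.7 in Ccl3-/- carrier, 8783 and 3511 in wild-type CCL3, and 7212 and 6010.4 in Ccl3-/- CCL3, so both wild-type carrier arrays were low and wild-type CCL3 replicate 2 was lower still. Pkm, the muscle-type pyruvate kinase that forms pyruvate, read 18228 and 13922 in wild-type carrier, 14764 and 21068 in Ccl3-/- carrier, 12039 and 15747 in wild-type CCL3, and 12090.3 and 12483 in Ccl3-/- CCL3. Wild-type carrier replicate 1 was thus its second highest array. Its other probe set ranged from 6139 to 11934 and read 7669 on that array.

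Pgam1, the phosphoglycerate mutase that moves the phosphate of 3-phosphoglycerate, ran the other way. It read 6991 and 4011 in wild-type carrier, 5790.4 and 4805 in Ccl3-/- carrier, 3641 and 3940.1 in wild-type CCL3, and 4847.5 and 5227 in Ccl3-/- CCL3. Wild-type carrier replicate 1 was its highest array, at 145.5% of the median of the others.

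**Figure D1:**
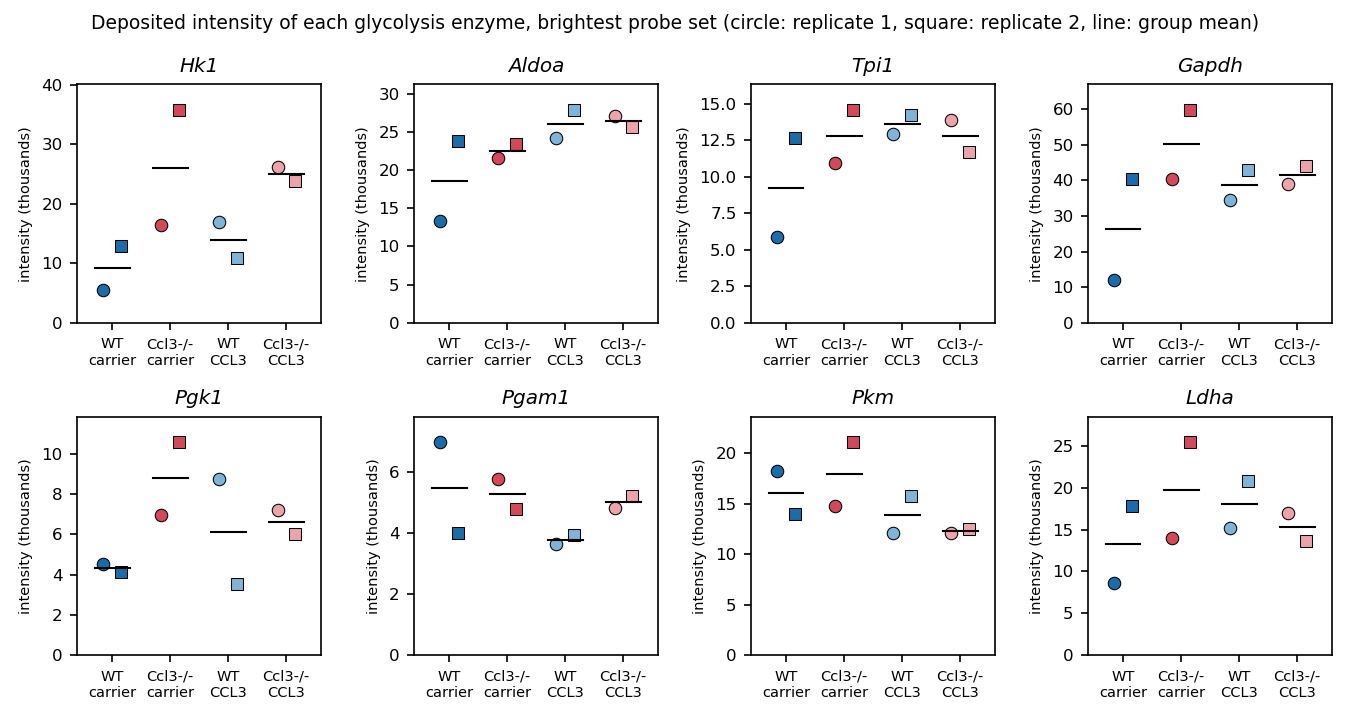
Deposited intensity divided by 1000 (vertical axis, from 0) of the brightest probe set of each of the 8 enzymes, by group; circles are replicate 1, squares replicate 2 and lines group means. Wild-type carrier replicate 1 is lowest of 8 for Hk1, Aldoa, Tpi1, Gapdh and Ldha, and highest for Pgam1.

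On wild-type carrier replicate 1, low Gapdh was therefore shared by part of the pathway. The array was singled out for its low Gapdh, so Gapdh is given here as a description and the pattern is read from the other 7 enzymes. The deviation of an array was taken as log2(intensity + 102.3) minus the mean of the same value on the other 7 arrays. It was -1.80 for Gapdh, -1.76 for Hk1, -1.12 for Tpi1, -0.99 for Ldha, -0.89 for Aldoa and -0.48 for Pgk1, against 0.35 for Pkm and 0.61 for Pgam1. The median of the 7 enzymes other than Gapdh was -0.89 (-0.94 with Gapdh), while the median of all 8156 probe sets past the filter was 0.03. In fold terms Gapdh lay 3.48-fold, Hk1 3.38-fold and Tpi1 2.18-fold under the other arrays, where 5.85% of all probe sets lay at least 2-fold under.

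Apart from Gapdh, this array was the lowest of 8 for 4 of 7 enzymes, or 4 of 9 probe sets. With Gapdh, whose 3 control probe sets were all lowest there, the counts were 5 of 8 and 7 of 12. It was also the lowest for 23.0% of all probe sets and, among 1154 probe sets at least as bright as the dimmest enzyme, for 30.6%. It was the highest for 1 of 8 enzymes and for 20.9% of all probe sets. Both tails were thus longer there than on other arrays over the whole table. These shares describe 1 array and carry no test.

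The remaining array that stood apart was replicate 2 of the Ccl3-/- carrier group, where the median of the 8 enzymes was 0.68. It was the highest of 8 for Hk1, Tpi1, Gapdh, Pgk1, Pkm and Ldha, 6 of 8 enzymes, against 15.6% of all probe sets. Hk1 deviated by 1.30, Pgk1 by 0.90, Gapdh by 0.82 and Ldha by 0.77 there, while Aldoa was at 0.03. On the other 6 arrays the median of the enzymes lay between -0.02 and 0.20.

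**Figure D2:**
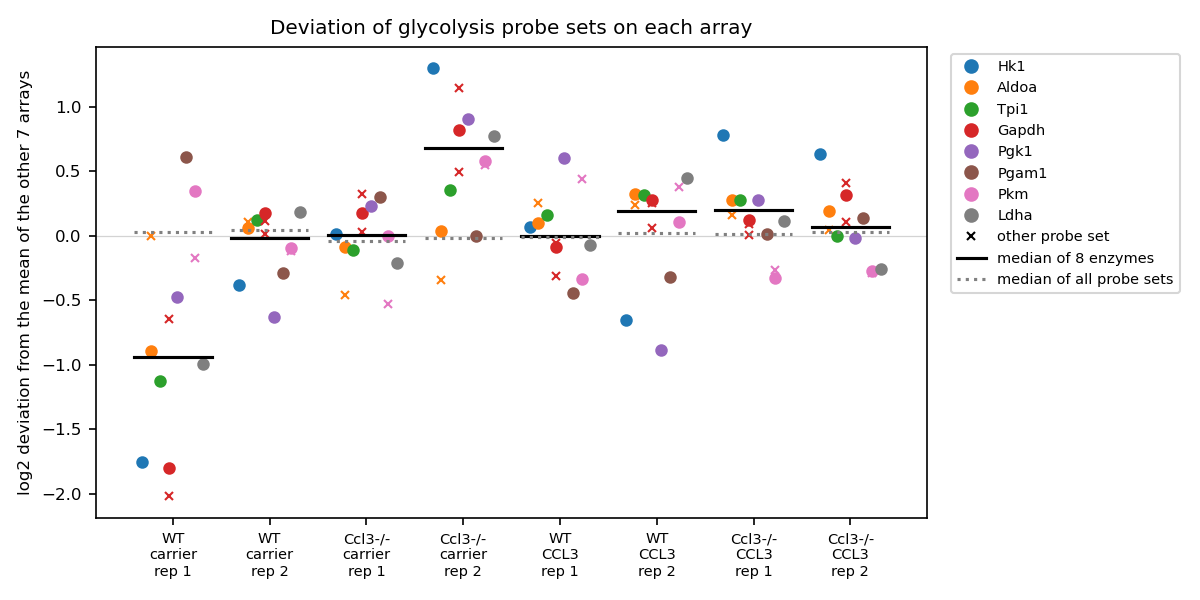
Deviation on the log2 scale (vertical axis) of each enzyme's brightest probe set (dots), and of its other probe sets on the transcribed strand (crosses), on each of the 8 arrays; lines are the median of 8 enzymes and dotted lines that of all 8156 probe sets. The enzymes' median is -0.94 on wild-type carrier replicate 1 and 0.68 on Ccl3-/- carrier replicate 2, and within -0.02 to 0.20 elsewhere.

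The 3 Gapdh control probe sets differed in how low they were. Toward the 5′ end of the transcript, wild-type carrier replicate 1 read 9448 against 26787 to 64904 on the other arrays. Toward the 3′ end it read 24499.7 against 35149.7 to 49023. The deviations were -2.02 at the 5′ end, -1.80 in the middle and -0.65 at the 3′ end.

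The 3′ to 5′ intensity ratio of Gapdh, a usual gauge of RNA and labelling quality, was accordingly 2.59 on this array and 0.755 to 1.31 on the others. The beta-actin controls did not move in parallel. Their 3′ to 5′ ratio was 1.58, the lowest of 8 (1.61 to 2.17 on the others), but after quantile normalization it was 1.73, within the 1.52 to 2.23 of the others. All 3 beta-actin probe sets were highest on this array, with 30538 against 18896 to 24031 at the 3′ end. The ratio of the pyruvate carboxylase controls was 2.78, within the 2.76 to 9.12 of the others. On Ccl3-/- carrier replicate 2 the Gapdh ratio was the lowest, at 0.755. The hybridisation spikes, RNAs added to each sample after labelling, deviated by -0.15 on wild-type carrier replicate 1 and by 0.43 on Ccl3-/- carrier replicate 2. The part of RNA quality, labelling or hybridisation in the enzymes' values was not tested.

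**Figure D3:**
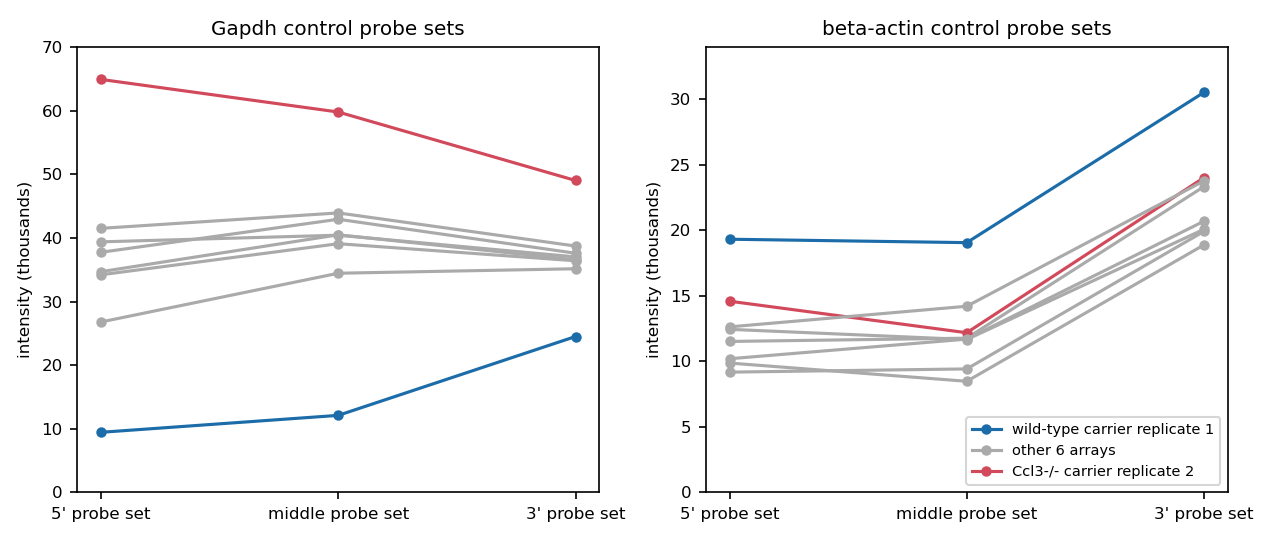
Deposited intensity divided by 1000 (vertical axis, from 0) of the 5′, middle and 3′ control probe sets of Gapdh (left) and beta-actin (right), with 1 line per array. Gapdh is at 9448 at the 5′ end on wild-type carrier replicate 1 (blue), which is highest of 8 for all 3 beta-actin probe sets.

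The Gapdh probe sets of the opposite strand were dim, at 34.5 to 552 over all arrays. All 3 were highest on wild-type carrier replicate 1, at 552, 441 and 526 (3′, 5′ and middle), so on that array they did not follow the strand transcribed. On Ccl3-/- carrier replicate 2, where the Gapdh controls were highest, they read 440.5, 437.9 and 481.9. From the lowest these ranked 6, 7 and 7 of 8. The 2 probe sets that name Gapdh together with pseudogenes were less low there than the controls. Of these the brighter read 12083 against 14207 to 25416, a deviation of -0.47, and cannot be given to Gapdh alone.

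Markers of the cell types of the mucosa also shifted between arrays, and their part in the enzymes' values was not tested. Of 9 macrophage markers, all were measured and 8 were bright enough to test. Their summed intensity was 17961 and 28590.0 in wild-type carrier, 26196 to 31102 in Ccl3-/- carrier, 27630.3 to 29949 in wild-type CCL3 and 27545 to 30379 in Ccl3-/- CCL3, so it was lowest on wild-type carrier replicate 1. The list was split there: Lyz2, C1qa, C1qb and Cd68 were each lowest of 8, with Lyz2 at 4423 against a median of 11064 over all arrays, whereas Cd14 (6804 against 5927), Csf1r (1879 against 1730), Mrc1 and Adgre1 lay above their medians. Of 8 markers of sustentacular cells, the supporting cells of the epithelium, 6 were measured and passed. Their sum was also lowest there, at 102339.9, against 127787 on replicate 2, 132169 to 145729.7 in Ccl3-/- carrier, 145964 to 151859.6 in wild-type CCL3 and 137144 to 164533 in Ccl3-/- CCL3. Here too the list was split, with 3 of 6 markers under the mean of the other arrays: the cytochrome Cyp2f2 was lowest of 8 (13645 against a median of 39417), and Krt18 (25485 against 19296), Krt8 and Aldh1a1 lay above their medians. Of the 7 olfactory neuron markers measured, Omp was lowest of 8 on wild-type carrier replicate 1, and Adcy3, Tubb3 and Uchl1 were highest. For all these lists, the share of all probe sets that were lowest of 8 on this array was 23.0%, and 20.9% were highest.

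The array with the brightest glycolysis enzymes, Ccl3-/- carrier replicate 2, had the highest neutrophil marker sum and the lowest neuronal and glial sums. Its 8 neutrophil markers, all measured, summed to 173139, against 121027 on its replicate, 86139 to 96906 in wild-type carrier, 92228 to 99674 in wild-type CCL3 and 91687 to 110388 in Ccl3-/- CCL3. Ltf and Lcn2, with medians of 51744 and 34724 over all arrays, weigh most in these sums. No other marker of the list had a median above 5084. The sum thus mainly reads these 2 genes and is not a measure of neutrophil content. On Ccl3-/- carrier replicate 2 only 2 of the 8 markers were highest of 8, and 0 were lowest. Of all probe sets, 15.6% were highest there and 17.9% lowest. Its olfactory neuron markers, 7 of 10 measured and all bright enough to test, summed to 32007, against 62610.2 on its replicate, 47500.4 to 53408 in wild-type carrier, 49279 to 57605 in wild-type CCL3 and 53072 to 66384 in Ccl3-/- CCL3. Its glia markers, 4 of 6 measured, summed to 4750, against 6260 to 13672 on the other arrays. Skeletal muscle, which is rich in glycolytic enzymes, gave little signal: 8 of its 16 markers passed the filter and the summed intensity was 6113.5 to 9089 over all arrays. No marker of any list was listed at exactly 0.

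The first comparison asked whether the glycolysis enzymes differed between genotypes after carrier. In limma, 0 of 12 probe sets of the enzymes passed an adjusted p of 0.05, and 0.0% of all 8156 did. At an unadjusted p under 0.05 there were 4 of 12, all higher in Ccl3-/- (Hk1, Pgk1, and the 5′ and middle Gapdh probe sets), where 5.06% of all probe sets were higher and 6.38% lower at that level. The median difference (Ccl3-/- minus wild type) was 0.57 over the 8 enzymes, with a range from -0.01 to 1.51, and -0.03 over all probe sets.

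The enzyme with the largest difference was Hk1, at 1.51 ± 0.45 (SE) on the log2 scale, or 2.85-fold, with an adjusted p of 0.376 in limma. Gapdh was at 1.15 ± 0.46 (2.21-fold; limma adjusted p 0.415) and Pgk1 at 0.98 ± 0.40 (limma adjusted p 0.415). Group means of Gapdh were 26297 ± 20064 (SD, n = 2) in wild type and 50102 ± 13689 (SD, n = 2) in Ccl3-/-, and the groups overlapped at 40484.5 against 40422. The other enzymes gave 0.60 ± 0.39 for Ldha, 0.55 ± 0.35 for Tpi1, 0.34 ± 0.28 for Aldoa, 0.15 ± 0.27 for Pkm and -0.01 ± 0.29 for Pgam1. The second Aldoa probe set had the opposite sign, at -0.40 ± 0.22.

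These differences depended on single arrays of both carrier groups. Without wild-type carrier replicate 1, Gapdh was at 0.28, Hk1 at 0.91, Tpi1 at 0.00, Ldha at 0.08 and Aldoa at -0.08. The median was then 0.31. Pgk1, at 1.05, kept its size. Without Ccl3-/- carrier replicate 2 the median was likewise 0.31, and without Ccl3-/- carrier replicate 1 it was 0.89. Leaving out wild-type carrier replicate 2 leaves the array singled out for low Gapdh alone in its group. The median was then 1.00, the middle Gapdh probe set was at 2.01 and the 5′ one at 2.41. These 2 probe sets passed in that limma fit, as did 1.44% of 7977 probe sets, which restates the low Gapdh of that array and is no test of the genotypes.

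After CCL3 injection the genotypes gave small differences for most enzymes. In limma 0 of 12 probe sets passed an adjusted p of 0.05 (0.0% of all) and 0 had an unadjusted p under 0.05, against 1.48% of all probe sets. The median was 0.06 over the 8 enzymes and 0.02 over all probe sets. Hk1 was at 0.87 ± 0.45, with 26124.5 and 23813 in Ccl3-/- against 16916 and 10862 in wild type, which did not overlap. Gapdh was at 0.11 ± 0.46, with a 95% interval from -0.92 to 1.14, and became -0.16 when arrays were scaled to equal hybridisation spikes. That scaling shifted the median of all probe sets by -0.24 in this comparison. Pgam1 was at 0.40 ± 0.29, Pgk1 at 0.24 ± 0.40 and Ldha at -0.23 ± 0.39.

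Averaged over both injections, Hk1 again led, at 1.19 ± 0.32 (2.29-fold; limma adjusted p 0.808, and 0.0923 to 1.00 over the alternatives). In limma 0 of 12 probe sets passed (0.0% of all), and 2 of 12, Hk1 and the 5′ Gapdh probe set, were higher at an unadjusted p under 0.05, where 3.04% of all probe sets were higher. The median of the enzymes was 0.21 and that of all probe sets -0.01. Gapdh was at 0.63 ± 0.33 and Pgk1 at 0.61 ± 0.28. Leaving out wild-type carrier replicate 1 left Hk1 at 0.89, Gapdh at 0.19 and the median at 0.14. Leaving out replicate 2 of that group gave a median of 0.47, and leaving out Ccl3-/- carrier replicate 1 gave 0.37.

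**Figure D4:**
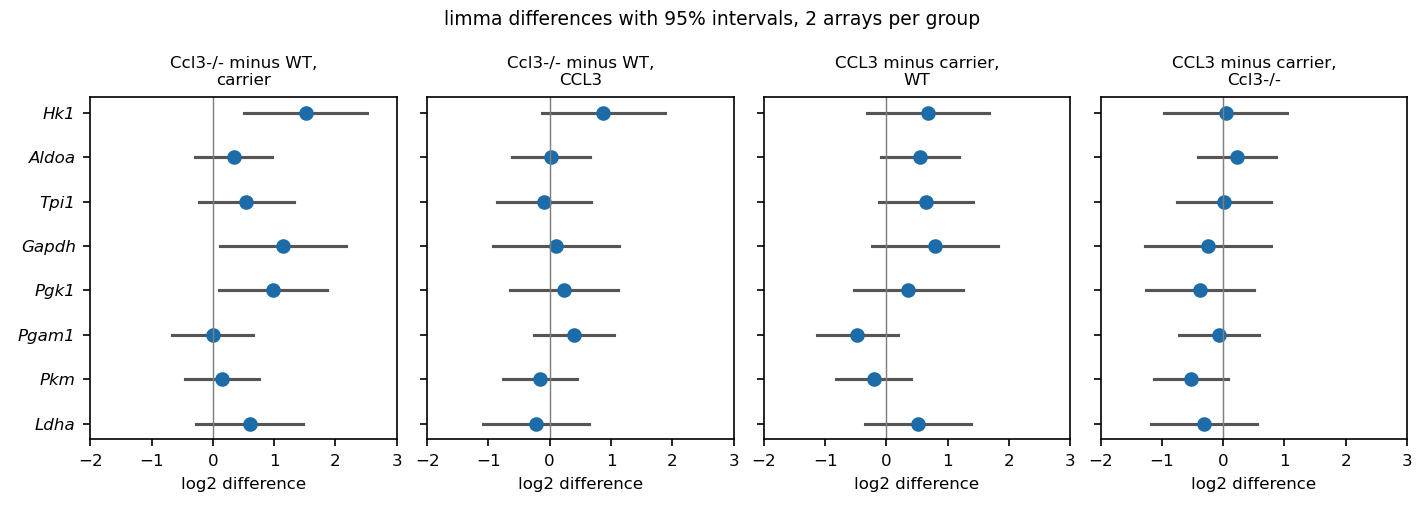
Difference on the log2 scale (horizontal axis, dots) with its 95% interval from limma (lines) for the brightest probe set of each of 8 enzymes in 4 comparisons, with 2 arrays per group. After carrier, the intervals of Hk1, Gapdh and Pgk1 lie above 0 before adjustment for 8156 probe sets, and none of these passes after it.

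CCL3 against carrier was compared next, within each genotype. In wild type, 0 of 12 probe sets passed in limma (0.0% of all), and 0 of 12 had an unadjusted p under 0.05, against 4.28% of all probe sets. The median of the enzymes was 0.53 and that of all probe sets -0.02. Gapdh was at 0.79 ± 0.46, Hk1 at 0.68 ± 0.45, Tpi1 at 0.65 ± 0.35, Aldoa at 0.55 ± 0.28 and Ldha at 0.52 ± 0.39, while Pkm was at -0.21 ± 0.27 and Pgam1 at -0.47 ± 0.29. This comparison shares the wild-type carrier arrays with the genotype comparison after carrier. Without wild-type carrier replicate 1 the median was 0.04 and Gapdh was at -0.07. Without replicate 2 of that group the median was 1.00 and the middle Gapdh probe set was at 1.66. It was the 1 enzyme probe set that passed in that limma fit, as did 1.05% of all probe sets, which again restates the low Gapdh of the remaining array.

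In Ccl3-/- mice no difference of the enzymes between injections was detected. The 95% intervals were wide, from -1.28 to 0.78 for Gapdh and from -0.96 to 1.04 for Hk1. In limma 0 of 12 probe sets passed (0.0% of all) and 0 of 12 had an unadjusted p under 0.05, against 4.89% of all probe sets. The median was -0.16, against 0.03 for all. Pkm was lowest, at -0.52 ± 0.27, and its CCL3 arrays (12090.3 and 12483) lay under its carrier arrays (14764 and 21068). With 2 arrays per group such a separation carries no test. Pgk1 was at -0.38 ± 0.40, Ldha at -0.31 ± 0.39 and Gapdh at -0.25 ± 0.46, and Aldoa at 0.23 ± 0.28. Without Ccl3-/- carrier replicate 2 the median was 0.08, and without replicate 1 of that group it was -0.52.

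The interaction, which asks whether CCL3 acted differently in the 2 genotypes, had a median of -0.64 over the enzymes and 0.04 over all probe sets. Gapdh was at -1.04 ± 0.65 and Ldha at -0.82 ± 0.55, each with a limma adjusted p of 0.908. In limma 0 of 12 probe sets passed (0.0% of all), and 0 of 12 had an unadjusted p under 0.05, against 5.05% of all. Without wild-type carrier replicate 1 the median was -0.13 and Gapdh was at -0.17. The median was -0.33 without Ccl3-/- carrier replicate 2, -0.96 without wild-type carrier replicate 2 and -0.94 without Ccl3-/- carrier replicate 1. Averaged over both genotypes, CCL3 gave a median of 0.19 over the enzymes and 0.01 over all probe sets. Again 0 of 12 passed in limma (0.0% of all) and 0 of 12 had an unadjusted p under 0.05, against 4.52% of all. Aldoa was at 0.39 ± 0.20, Hk1 at 0.36 ± 0.32 and Pkm at -0.36 ± 0.19. The sign of this median was not stable: leaving out replicate 1 of wild-type carrier gave -0.025 and leaving out replicate 1 of Ccl3-/- carrier gave -0.015, against 0.48 and 0.37 on leaving out replicate 2 of those groups.

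Several isoenzymes of the pathway were lowest on wild-type carrier replicate 1 as well. Of 17 listed, 14 had a probe set and 11 were bright enough to test. On that array 6 of these 11 were lowest of 8, against 23.0% of all probe sets, with a median deviation of -0.82. Ldhb, the lactate dehydrogenase subunit that favours pyruvate formation, read 744.5 there and 2383 to 4277 on the others, a deviation of -1.96. Pfkm, a phosphofructokinase subunit that sets the pace of the pathway, read 644 against 1567 to 2259.7, a deviation of -1.45. Gapdhs, the sperm form of the dehydrogenase, was among the highest there, at 496 against 106 to 510.3. Not all forms followed: Hk2, a second hexokinase, deviated by 0.11, and Eno3, a muscle enolase, by -0.02.

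Genes of glucose transport and of the control of the pathway were divided on that array. Of 17 transport and control genes, 7 passed the filter, with a median deviation of -0.04. The 3 lowest of 8 were the transporters Slc2a4 (-1.41), Slc2a1 (-1.02) and Slc2a3 (-0.96), which carry glucose across the plasma membrane. Slc2a4 and Slc2a3 were dim there, at 62.8 and 223.6, under the filter level of 362.7. Pfkfb3, which makes the activator of phosphofructokinase, deviated by 0.59. Of 53 genes in 7 lists of glucose metabolism and hypoxia response, 20 (37.7%) were lowest of 8 on this array, against 23.0% of all probe sets, and 10 (18.9%) highest, against 20.9%. Their median was -0.15. The hypoxia list had a median of 0.06, with 2 of 13 lowest and 4 of 13 highest.

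**Figure D5:**
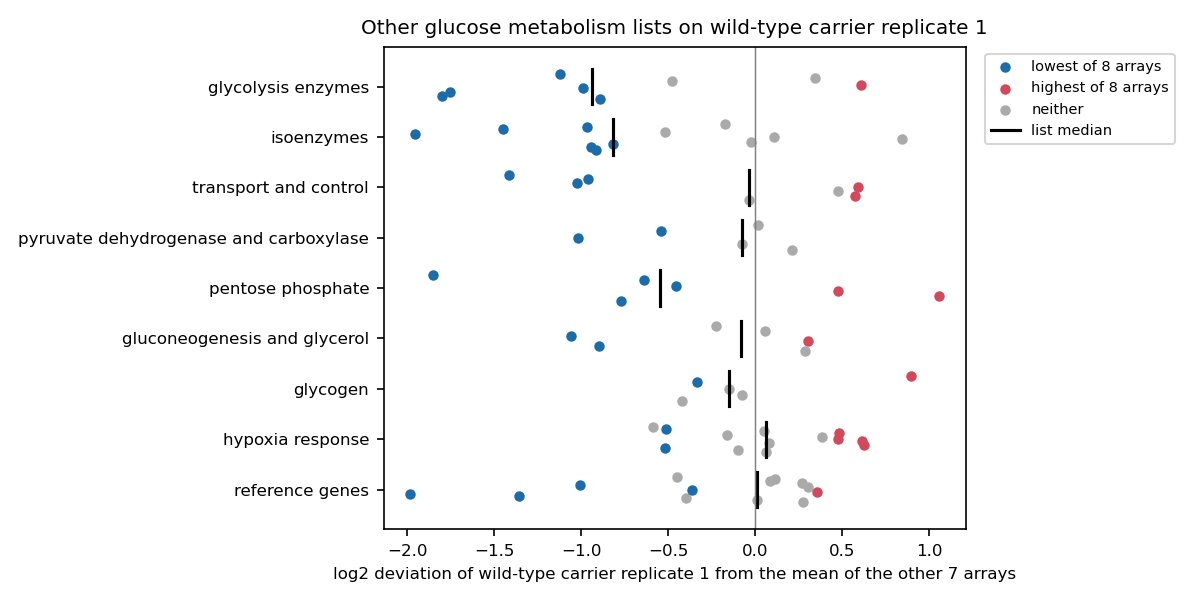
Deviation of wild-type carrier replicate 1 on the log2 scale (horizontal axis) for genes past the filter in 9 lists, with the list median as a bar; blue dots are lowest of 8 arrays and red dots highest. The medians are -0.94 for the glycolysis enzymes, -0.82 for isoenzymes and 0.06 for the hypoxia response.

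In the comparisons, 0 of these 53 genes passed limma's adjusted threshold. The counts that follow are at an unadjusted p under 0.05, with the share of all probe sets in the same direction beside them. After carrier, 5 were higher in Ccl3-/- (5.06% of all) and 3 lower (6.38% of all). Among them, Slc2a1 was at 1.13 ± 0.31 (limma adjusted p 0.364) and Pcx, pyruvate carboxylase, at 0.86 ± 0.28. The 3′ pyruvate carboxylase control probe set, which was outside the tests, did not share this rise. It read 2094 and 2354 in wild-type carrier and 2121.5 and 1824 in Ccl3-/- carrier. The 5′ and middle controls overlapped between these groups. Among the lower, Gapdhs was at -1.18 ± 0.40 and Fbp1, a gluconeogenic bisphosphatase, at -0.88 ± 0.29. Gapdhs was dim, with a median of 239.2 on the arrays other than wild-type carrier replicate 1, under the filter level of 362.7. Its differences here and in the comparisons below are those of a dim gene. After CCL3, 1 was higher (0.821% of all) and 0 lower (0.662% of all): Pklr, the liver-type pyruvate kinase, at 0.61 ± 0.25. The genes next in order, Rpe at 0.52 ± 0.36, Dld at -0.47 ± 0.37 and Pcx at -0.29 ± 0.28, did not reach that level. Averaged over injections 1 was higher, Slc2a1 at 0.58 ± 0.22 (3.04% of all), and 0 lower (2.89% of all). Slc2a3 at 0.47 ± 0.27, Gapdhs at -0.55 ± 0.28 and Fbp1 at -0.45 ± 0.20 did not reach that level.

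For CCL3 against carrier in wild type, 5 of the 53 were higher (1.97% of all) and 1 lower (2.31% of all). Pcx was at 1.30 ± 0.28 (limma adjusted p 0.819) and Gpd1, glycerol-3-phosphate dehydrogenase, at 1.39 ± 0.41, and the lower gene was Gapdhs at -0.96 ± 0.40. Dlat, at -0.45 ± 0.24, did not reach that level. In Ccl3-/- 3 were higher (2.77% of all), with Pklr at 1.16 ± 0.25 (limma adjusted p 0.723) and Fbp1 at 0.83 ± 0.29. The 1 lower (2.12% of all) was Pgm2 at -0.73 ± 0.26, while Pdk4, which shuts off pyruvate dehydrogenase, did not reach that level at -0.84 ± 0.39. The interaction gave 2 higher (3.19% of all), Pklr at 1.19 ± 0.35 and Gapdhs at 1.26 ± 0.56. It gave 4 lower (1.86% of all), among them Pcx at -1.15 ± 0.40 and Slc2a1 at -1.10 ± 0.43. The 3′ pyruvate carboxylase control read higher after CCL3 in both genotypes. In wild type it read 3311.5 and 3219 after CCL3 against 2094 and 2354 after carrier. In Ccl3-/- it read 2756 and 2528 against 2121.5 and 1824. Averaged over genotypes 4 were higher (2.35% of all), with Gpd1 at 1.08 ± 0.29 and Pcx at 0.72 ± 0.20. The 1 lower (2.17% of all) was Dlat at -0.40 ± 0.17, and Pgm2, at -0.37 ± 0.19, did not reach that level.

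The genes whose pattern over the 8 arrays was most like that of the middle Gapdh probe set were no glycolysis enzymes. Ceacam1 had a Pearson correlation of 0.99 (0.89 without the arrays farthest from the median, wild-type carrier replicate 1 and Ccl3-/- carrier replicate 2), and Mrpl11 of 0.99 (0.82). Park7 reached 0.99 (0.69), Timm44 0.99 (0.71) and Cct3 0.99 (0.39). Among the other 7 enzymes, only Tpi1 lay in the highest 5% of 8156 probe sets, with 0.93, and this became -0.14 without those 2 arrays. Ldha and Aldoa had 0.87, Hk1 0.83, Pgk1 0.37, Pkm -0.13 and Pgam1 -0.58, so the likeness of Gapdh to Tpi1, Ldha and Hk1 rested on those arrays (0.14 for Ldha and -0.09 for Hk1 without them). These correlations share depth, scaling and the same 8 samples and are descriptions.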

How the data were processed

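RNA was hybridised to 8 single-colour arrays, and the authors deposited 1 linear intensity value per probe set and array; how they were scaled, and with which software, is not given in the sources used here. Means after trimming 2% at each end were within 0.00434% of each other's mean, so the values were not normalized again. In the platform annotation 10855 of 12488 probe sets had 1 gene symbol, 396 several and 1237 none. Symbols were updated through the GRCm38.p6 RefSeq gene table.

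Groups came from the sample titles. Values were analysed as log2(intensity + 102.3), the pseudocount being the 20th percentile of the table, so differences of dim genes are understated. Probe sets above 362.7 (the 40th percentile) on at least 2 arrays were tested, without controls other than Gapdh, which left 8156. limma (version 3.58.1, R 4.3.3) fitted the 4 groups together with an intensity trend, 4 residual degrees of freedom and Benjamini-Hochberg adjustment over all probe sets. It was tested on simulated data. Every enzyme is given by its brightest probe set. Of the other lists, the genes named are the 3 lowest and 3 highest deviations on wild-type carrier replicate 1 and up to 2 per direction with the smallest p in each comparison; Slc2a4, Slc2a1, Slc2a3, Pfkfb3, Hk2 and Eno3 (in the text on that array), the single marker genes and the other genes of the closing observations, were named after their values were seen. The genes most like Gapdh are the 5 highest correlations.

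The enzymes, lists and rules were chosen with earlier results of these data known. Alternatives were quantile, single-median and cyclic loess normalization, pseudocounts at the 5th and 40th percentile (22.0 and 362.7), no filter and a filter at the 60th percentile (945), no trend, a replicate block, only the groups compared, all probe sets, and each array left out. Scaling to equal hybridisation spikes (9 probe sets) was added after the data were seen. The precision is limited by 2 arrays per group.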

Additional observations from a re-analysis of the deposited data

How the results depend on the processing

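Under the other normalizations, pseudocounts and filters, no trend and spike scaling, and with the groups compared alone in the 4 pairwise comparisons where that can be fitted, the counts of enzyme probe sets past the threshold remained 0 and no median or called value moved beyond the spread between replicates. Spike scaling turned the median of the genotype comparison after CCL3 from 0.06 to -0.20, with a shift of -0.24 in all probe sets. On wild-type carrier replicate 1 the median deviation was -0.98 to -0.77 and that of Gapdh -1.81 to -1.65; with all probe sets counted, 7 of 12 were lowest. Single arrays mattered more; a group left with 1 array is assumed to vary like the others. Leaving out each in turn gave 0 to 2 passing probe sets for genotype after carrier and 0 to 1 for CCL3 in wild type, in each case passing only without wild-type carrier replicate 2. The medians ranged from 0.31 to 1.00 for genotype after carrier, 0.041 to 1.00 for CCL3 in wild type, -0.52 to 0.078 for CCL3 in Ccl3-/-, -0.96 to -0.13 for the interaction, -0.065 to 0.075 for genotype after CCL3, 0.14 to 0.47 for the genotype average and -0.025 to 0.48 for the CCL3 average. Of 56 values (8 enzymes in 7 comparisons), 24 changed sign on leaving out an array. In 12 the change was over 1 SE. For genotype after carrier, Aldoa ranged from -0.078 to 0.76 and Pgam1 from -0.40 to 0.39. For genotype after CCL3, Pgk1 ranged from -0.41 to 0.89. For CCL3 in Ccl3-/-, Hk1 ranged from -0.52 to 0.60 and Ldha from -0.74 to 0.12. For CCL3 in wild type, Gapdh ranged from -0.074 to 1.66 and Pgk1 from -0.29 to 1.01. For the interaction, Aldoa ranged from -0.73 to 0.10. For the genotype average, Aldoa ranged from -0.029 to 0.39 and Tpi1 from -0.043 to 0.50. For the CCL3 average, Gapdh ranged from -0.16 to 0.71 and Pgk1 from -0.34 to 0.31. Wild-type carrier replicate 1 gave the turned sign for Aldoa, Pgam1, Tpi1 and Gapdh, wild-type CCL3 replicates 1 or 2 for Pgk1, and the Ccl3-/- carrier arrays for Hk1 and Ldha. The other 12 changed sign by less: Pkm for genotype after carrier, Aldoa, Tpi1, Gapdh, Pkm and Ldha for genotype after CCL3, Tpi1, Gapdh and Pgam1 for CCL3 in Ccl3-/-, Pkm and Ldha for the genotype average, and Ldha for the CCL3 average. Other settings turned the sign of 7 values, each by under 1 SE. The cause was not tested.

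Replicate numbers did not pair the arrays: deviations of same-numbered arrays correlated at -0.16 to 0.18 over 8156 probe sets. With the replicate block 0 of 12 enzyme probe sets passed in each comparison, and the median for genotype after carrier was 0.57.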

Other observations

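The pentose phosphate pathway, which branches from glycolysis to make NADPH and ribose, was split on wild-type carrier replicate 1. Of its 7 listed genes 6 were measured. Over all probe sets 23.0% were lowest of 8 on that array and 20.9% highest. Tkt, the transketolase that returns sugars to glycolysis, read 3340.5 there and 11249.5 to 13470.1 on the other arrays. Taldo1, its partner transaldolase, read 5448 against 7599 to 10338, and Pgd, the second NADPH-forming enzyme, read 3116 against 4036 to 6536. Rpia, the isomerase of ribose 5-phosphate, read 3159.5 against 3347 to 5234. Against these 4 lowest values, Pgls, the lactonase, read 9036.5 against 3553 to 5402, and Rpe, the epimerase, 638 against 258.5 to 586, each the highest of 8. In the 7 comparisons 0 of these 6 genes passed in limma, and 0 had an unadjusted p under 0.05.

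Of 5 glycogen genes past the filter, Ugp2, which makes UDP-glucose, was highest of 8 on that array (2660.2 against 858 to 2303) and Pygb, the brain glycogen phosphorylase, was lowest (1482.5 against 1514 to 2320.2). Gpd1 was lowest too, at 421 against 545 to 2160.0. Of 13 other reference genes used for normalizing, 4 were lowest on that array. There 23.0% of all probe sets were lowest, and 30.6% of those at least as bright as the dimmest enzyme. Of the 4, Eef2 and Eef1a1, translation elongation factors, deviated by -1.98 and -1.36, and Hprt, a purine salvage enzyme, by -0.36. The last of these, Sdha, a subunit of succinate dehydrogenase, read 615.5 against 989 to 1627. Gusb, a lysosomal enzyme, was highest there, at 0.35. The median of the 13 was 0.01.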
